A study of Danio rerio with 6 samples.

Results

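Stress in the endoplasmic reticulum (ER) was followed through 8 genes of the unfolded protein response in zebrafish heads: the chaperones *hspa5* and *hsp90b1*, the disulfide isomerase *pdia4*, and the transcription factors *atf6*, *xbp1*, *atf4a*, *atf4b* and *ddit3*. They were picked by gene name, with earlier results of these data known, and all 8 were found among the 32520 genes listed. All 8 also passed the filter on low values (0.5 TPM or more on average), which left 22824 genes for testing. TPM, the unit of the values, takes account of gene length and brings every library to a common total.

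The samples were heads of zebrafish larvae of the AB strain at 4 days post-fertilization (dpf). There were 3 samples of *tulp1*-dKO larvae, in which both *tulp1a* and *tulp1b* were knocked out, and 3 samples of wild-type (wt) larvae. The double knockout came from crossing 1 CRISPR/Cas9 line of each gene, so it stands for 1 allele of each gene, and the mutations are present in every tissue of the head. The number of heads in a sample and whether the samples came from separate clutches are not given in the sources used here, so p-values measure only the spread between these samples, which may be technical.

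Secreted and membrane proteins fold in the ER, where BiP (the product of *hspa5*) and its partners bind unfolded chains. When unfolded chains build up, the membrane sensors PERK, IRE1 and ATF6 set off the response: PERK slows translation and favours that of ATF4, IRE1 splices the *xbp1* mRNA into the form that codes for the active factor, and ATF6 is cut to release a transcription factor. Rods and cones load the ER heavily because they make opsin throughout life, and misfolded rhodopsin is a classic trigger of the response in photoreceptors. Splicing of *xbp1*, cleavage of ATF6 and translation of ATF4 leave no trace in a TPM value per gene.

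Both targeted genes were lower in all 3 *tulp1*-dKO samples. *tulp1a* was at 14.35 to 16.01 TPM in *tulp1*-dKO and 23.7 to 25.3 TPM in wt, and *tulp1b* at 2.01 to 2.71 TPM in *tulp1*-dKO and 9.77 to 13.1 TPM in wt. The samples listed 25096 to 25304 genes above 0 and summed to 945753 to 948860 TPM in *tulp1*-dKO and 945666 to 947332 TPM in wt, but TPM keeps no read counts and the depth behind each value is unknown. Among markers of the cell types in a head, 9 of 12 rod genes and 8 of 13 cone genes fell past both limits. The limits used here are an adjusted p of 0.05 in limma and a 2-fold difference. In the opposite direction, 1 of the 13 cone genes had a log2 fold change above 0, with *tulp1*-dKO above wt in every sample. Its unadjusted limma p was 0.05 or less, but it did not pass the adjusted p. Summed rod markers were at 445 to 760 TPM in *tulp1*-dKO and 2610 to 3025 TPM in wt, and summed cone markers at 3306 to 6144 TPM in *tulp1*-dKO and 16090 to 16745 TPM in wt. Markers of head tissue were present in every sample, with brain neuron genes at 1594 to 1881 TPM in *tulp1*-dKO and 1753 to 1871 TPM in wt, and lens genes at 3536 to 4407 TPM in *tulp1*-dKO and 3630 to 4025 TPM in wt. Of 7 Muller glia markers 1 fell (*slc1a2a*), and 0 genes passed the adjusted p among markers of neurons, lens, retinal pigment epithelium, liver, pancreas, cartilage and bone, pituitary, muscle, microglia and macrophages, or skin. In bulk heads, fewer cells of a type and less RNA per cell cannot be told apart.

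Under those limits, called a change from here on, 0 of the 8 genes changed, while 1.32% of all genes tested did (0.364% higher and 0.96% lower in *tulp1*-dKO). With the adjusted p alone, 0 of the 8 passed limma's test, against 1.89% of all genes (0.67% higher, 1.22% lower). At an unadjusted limma p of 0.05 or less there were 5 of 8 (*hspa5*, *hsp90b1*, *pdia4*, *xbp1* and *ddit3*), all with the higher mean in *tulp1*-dKO. That threshold took 17.1% of all genes, 10.1% higher and 6.97% lower in *tulp1*-dKO. The groups did not overlap for 4 of the 8 (*hspa5*, *hsp90b1*, *xbp1* and *ddit3*), all with *tulp1*-dKO above wt, and for 23.5% of all genes (14.6% above and 8.86% below). The log2 fold change was above 0 for 7 of 8 genes and for 58.1% of all genes, with a median of 0.44 over the 8 and of 0.05 over all genes. Because the 8 were chosen with earlier results of these data known, the shares of all genes beside them are description and no test. Summed over the 8 genes, the level was 1656 to 1680 TPM in *tulp1*-dKO and 1184, 1235 and 1464 TPM in wt samples 1, 2 and 3.

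**Figure D1:**
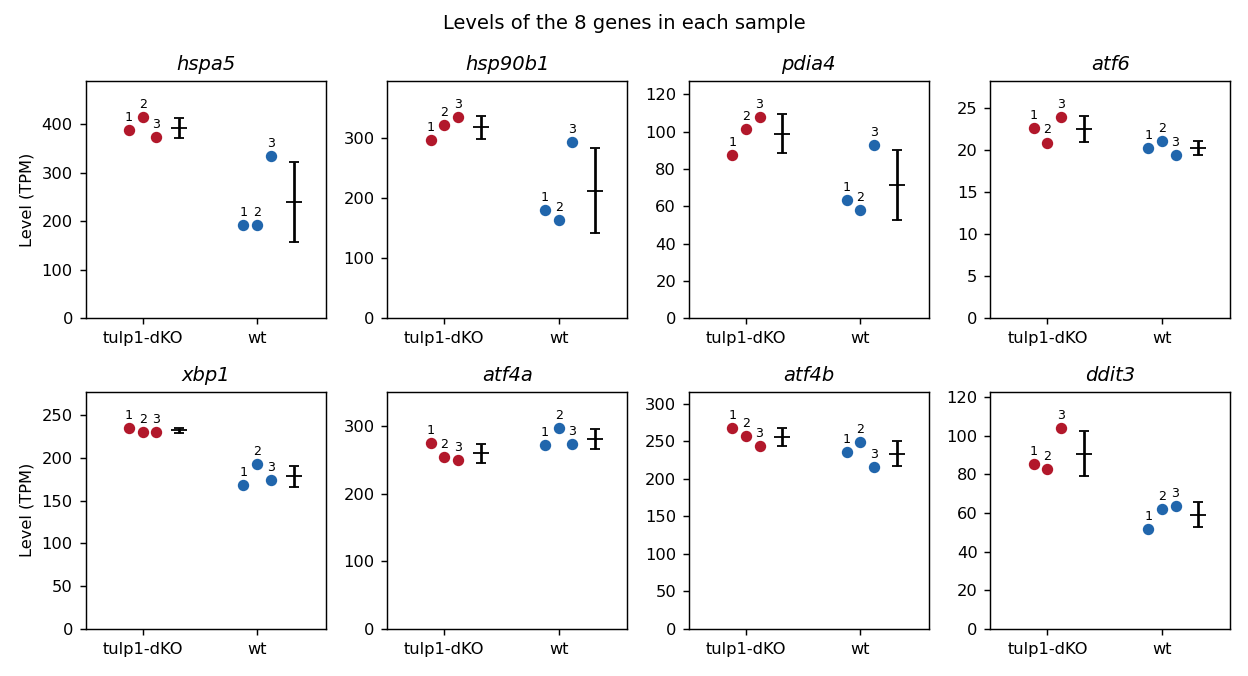
Level in TPM (vertical axes, starting at 0) of the 8 genes in each sample, *tulp1*-dKO in red at the left of each panel and wt in blue at the right, with sample numbers above the points and the mean and SD of the 3 samples beside them. The wt sample 3 lies far above the other wt samples for *hspa5*, *hsp90b1* and *pdia4*, while *xbp1* and *ddit3* have 3 *tulp1*-dKO points above 3 close wt points.

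The ER chaperones came first by size of the difference. *hspa5* (ENSDARG00000103846), the major chaperone of the ER lumen and the usual readout of the response, had 387, 414 and 373 TPM in *tulp1*-dKO and 193, 192 and 334 TPM in wt. All *tulp1*-dKO values lay above all wt values, but wt sample 3 stood at 1.73 times the mean of the other wt samples and within 39.0 TPM of the lowest *tulp1*-dKO sample. The means were 391 ± 21.1 TPM in *tulp1*-dKO and 240 ± 81.6 TPM in wt (SD, n = 3 each), a log2 fold change of 0.76 (SE 0.21, 95% interval 0.27 to 1.25). The p in limma was 0.00816 before and 0.134 after adjustment over all genes tested, so *hspa5* did not pass the test.

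*hsp90b1* (ENSDARG00000003570), the Hsp90 of the ER that finishes the folding of a smaller set of clients, had 296, 320 and 334 TPM in *tulp1*-dKO and 180, 164 and 292 TPM in wt. Its groups were separated by only 4.05 TPM, again because of wt sample 3, which was 1.70 times the mean of the other wt samples. It averaged 317 ± 19.0 TPM in *tulp1*-dKO and 212 ± 70.0 TPM in wt (SD, n = 3 each), with a log2 fold change of 0.63 (SE 0.21, 95% interval 0.14 to 1.11) and an adjusted p in limma of 0.187.

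*pdia4* (ENSDARG00000018491) encodes a protein disulfide isomerase, an enzyme that makes and rearranges disulfide bonds and that works in complexes with BiP. Its values were 87.3, 101 and 108 TPM in *tulp1*-dKO and 63.5, 58.1 and 93.1 TPM in wt. Here wt sample 3, at 1.53 times the mean of the other wt samples, passed the lowest *tulp1*-dKO sample, so the groups overlapped. The log2 fold change was 0.49 (SE 0.18, 95% interval 0.06 to 0.92, adjusted p in limma 0.234).

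These genes shared the uneven wt group. The coefficient of variation of *hspa5*, *hsp90b1* and *pdia4* was 5.38%, 5.997% and 10.6% in *tulp1*-dKO and 34.1%, 33.04% and 26.3% in wt. Since wt sample 3 was singled out by its high values of these same genes, a fit without it raises their differences by construction. Such a fit shows how much rests on that sample and lends no support to a change. With wt sample 3 left out, *hspa5* had a log2 fold change of 1.02 and an adjusted p in limma of 0.00977, past both limits. *hsp90b1* had 0.88 and 0.0156, past the adjusted p but under the fold change of 2. *pdia4* had 0.70 and 0.0613 in that fit. The 5 samples then gave 1 change among the 8 genes, against 0.99% of all genes (0.337% higher), and 2 of 8 past the adjusted p alone, against 1.21% of all genes (0.438% higher). At an unadjusted p of 0.05 or less that fit took 16.7% of all genes, 9.77% higher in *tulp1*-dKO.

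Leaving out any other sample gave *hspa5* log2 fold changes of 0.63 to 0.79 with adjusted p-values in limma of up to 0.336. A count of genes that stood at least 1.5 times above both other samples of the same group set wt sample 3 beside the rest: 2 of the 8 genes (*hspa5* and *hsp90b1*) did so there, and 0 of 8 in each of the other 5 samples. These 2 are among the genes that singled out the sample, so their count is no separate result. Over all genes tested the share in wt sample 3 was 4.55%, within the 2.81% to 5.104% of the other samples but above the 2.92% and 3.90% of wt samples 1 and 2. Genes at least 1.5 times below both others made up 6.09% in wt sample 3 and 4.41% and 4.35% in wt samples 1 and 2. In *tulp1*-dKO samples that share was 3.86% to 6.71%. The rod markers of wt sample 3 summed to 2982 TPM and its cone markers to 16090 TPM, near the 2610 and 3025 TPM and the 16745 and 16533 TPM of wt samples 1 and 2. Why the chaperones were high in this sample was not tested.

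Among the transcription factors, *xbp1* (ENSDARG00000035622), whose spliced mRNA codes for the factor that drives genes of folding and degradation, had almost equal values in the *tulp1*-dKO samples (coefficient of variation 1.12%). It was at 235, 230 and 230 TPM in *tulp1*-dKO and at 169, 192 and 174 TPM in wt. The groups were 38.2 TPM apart, and wt sample 3 was 0.965 times the mean of the other wt samples. *xbp1* averaged 232 ± 2.60 TPM in *tulp1*-dKO and 178 ± 12.4 TPM in wt (SD, n = 3 each), a log2 fold change of 0.38 (SE 0.07, 95% interval 0.21 to 0.55). With an adjusted p in limma of 0.0528, it was the member closest to the threshold without passing it.

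*ddit3* (ENSDARG00000059836) encodes CHOP, the factor induced downstream of ATF4 that in mammals ties lasting ER stress to cell death. The gene had 85.2, 82.9 and 104 TPM in *tulp1*-dKO and 51.7, 62.0 and 63.5 TPM in wt. The lowest *tulp1*-dKO sample lay 19.4 TPM above the highest wt sample. The ratio of the means was 1.54 (90.7 ± 11.6 TPM in *tulp1*-dKO and 59.07 ± 6.44 TPM in wt, SD, n = 3 each), and the log2 fold change was 0.62 (SE 0.12, 95% interval 0.32 to 0.91, adjusted p in limma 0.0632).

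The remaining factors differed little. *atf4a* (ENSDARG00000111939) and *atf4b* (ENSDARG00000038141) are the zebrafish copies of *ATF4*, the main factor of the PERK branch, whose activity is set largely by translation. *atf4a* was at 275, 253 and 250 TPM in *tulp1*-dKO and 272, 297 and 273 TPM in wt, the only member with the lower mean in *tulp1*-dKO (log2 fold change -0.11, 95% interval -0.28 to 0.06, adjusted p in limma 0.484). *atf4b* was at 268, 257 and 244 TPM in *tulp1*-dKO and 236, 249 and 215 TPM in wt (log2 fold change 0.14, 95% interval -0.05 to 0.32, adjusted p in limma 0.440). The groups overlapped for both genes, and for *atf6* as well.

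*atf6* (ENSDARG00000012656), the sensor that becomes a transcription factor once cut, was the lowest of the 8 genes. It had 22.7, 20.9 and 23.9 TPM in *tulp1*-dKO and 20.2, 21.1 and 19.4 TPM in wt, with a log2 fold change of 0.15 (95% interval -0.08 to 0.38) and an adjusted p in limma of 0.491. The intervals of *atf4a*, *atf4b* and *atf6* all stayed within a log2 difference of 0.38 in either direction, narrower than those of the chaperones.

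**Figure D2:**
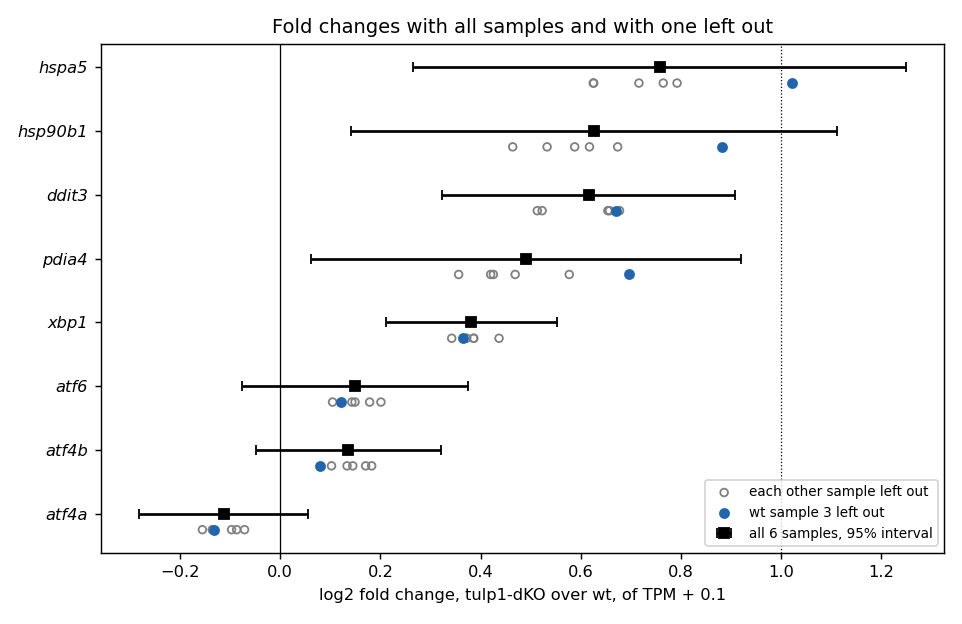
Log2 fold change of the 8 genes, *tulp1*-dKO over wt, on TPM + 0.1 (horizontal axis), with squares and bars for all 6 samples and the 95% interval, filled blue circles for the fit without wt sample 3 and open circles for the fits without each other sample. The dotted line marks a fold change of 2, which *hspa5* passes only without wt sample 3, and the circles of *xbp1* and *ddit3* stay at 0.34 to 0.44 and 0.51 to 0.68.

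Because TPM accounts for gene length, the levels of the 8 genes could be ranked within a group. In *tulp1*-dKO the order by mean TPM was *hspa5* (391), *hsp90b1* (317), *atf4a* (259), *atf4b* (256), *xbp1* (232), *pdia4* (98.8), *ddit3* (90.7) and *atf6* (22.5). Only *atf4a* with *atf4b* and *pdia4* with *ddit3* were neighbours whose samples overlapped. In wt the order was *atf4a* (281), *hspa5* (240), *atf4b* (233), *hsp90b1* (212), *xbp1* (178), *pdia4* (71.5), *ddit3* (59.07) and *atf6* (20.2), and each neighbour from *atf4a* down to *xbp1* overlapped the next, as did *pdia4* and *ddit3*.

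Ratios between members within a sample do not depend on the scaling of the library. The ratio of *atf4b* to *atf4a* was 0.9754, 1.01 and 0.976 in *tulp1*-dKO and 0.869, 0.837 and 0.790 in wt, so the groups did not overlap. The difference of the log2 ratio was 0.25, with a two-sided exact permutation p of 0.1, the smallest that 3 against 3 samples can give. The ratios of *hspa5* to *hsp90b1*, *hsp90b1* to *pdia4* and *hspa5* to *pdia4* had overlapping groups and exact permutation p-values of 0.2 to 0.3. The ratios were chosen after the levels had been seen, and after adjustment over the 4 of them the p-values were 0.267 to 0.3. How reads are shared between the *atf4* copies in the authors' counting is uncertain.

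Beyond the 8 members, 202 further genes of the pathway were tested in 7 lists by role. The lists were written by hand with earlier results of these data known, so the shares of all genes beside them are description and no test. Of these 202, 2 changed, both higher in *tulp1*-dKO (0.990%), and 0 were lower, beside 0.364% and 0.96% of all genes. The paper already describes *atf3*, which is among the changed genes, as upregulated in this mutant. Its place among them is therefore no independent result. The adjusted p alone was passed by 6 higher (2.97%) and 1 lower (0.495%), beside 0.67% and 1.22% of all genes. At an unadjusted p of 0.05 or less there were 42 higher (20.8%) and 5 lower (2.48%), beside the 10.1% and 6.97% of all genes tested. The log2 fold change was above 0 in 155 of 202 (76.7%, beside 58.1% of all genes), and the median was 0.13 beside 0.05 over all genes. The groups did not overlap for 56 of 202 with *tulp1*-dKO above wt (27.7%, beside 14.6% of all genes) and for 5 with *tulp1*-dKO below wt (beside 8.86%). The counts and medians of the single lists that follow include the members.

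**Figure D3:**
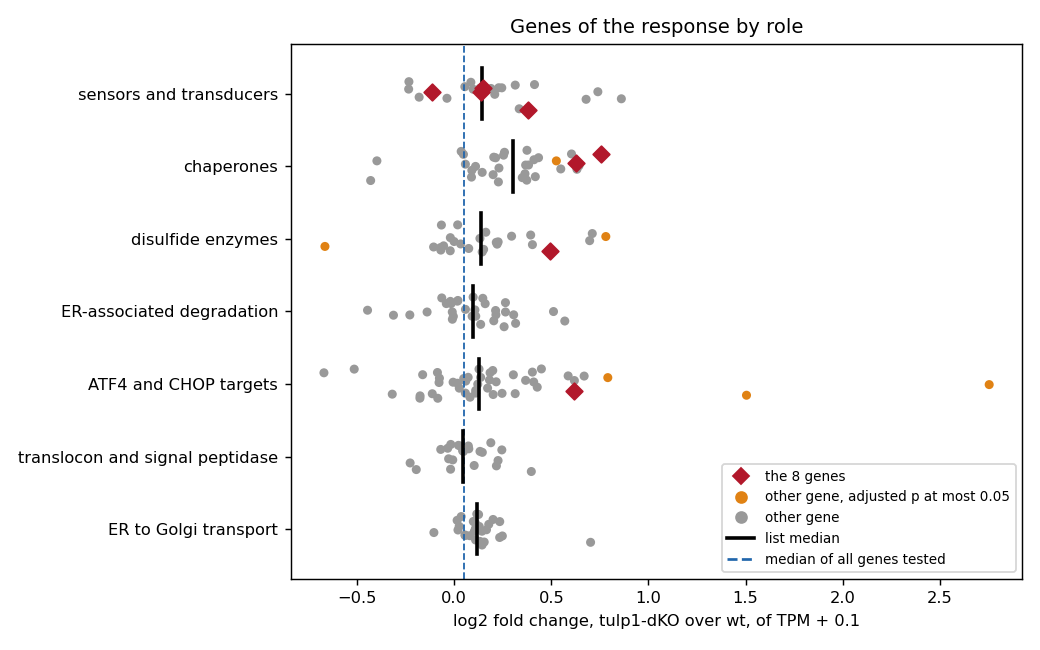
Log2 fold change, *tulp1*-dKO over wt, on TPM + 0.1 (horizontal axis) of the 210 tested pathway genes in 7 lists (rows), with the 8 members as red diamonds, other genes with an adjusted p of at most 0.05 in orange, the rest in grey, black bars at the list medians and a dashed line at the median of all genes tested. Most points lie between -0.5 and 0.8, *atf3* and *mthfd1l* stand apart at 2.75 and 1.505, and the chaperones have the highest list median, 0.30.

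Sensors and transducers had 24 tested genes, of which 0 passed the adjusted p, and the median log2 fold change was 0.14. At an unadjusted p of 0.05 or less, 6 were higher and 0 lower (10.1% and 6.97% of all genes). *eif2ak3*, the gene of PERK, was at 23.5, 18.8 and 21.7 TPM in *tulp1*-dKO and 8.50, 10.8 and 17.3 TPM in wt (log2 fold change 0.86, SE 0.25, adjusted p in limma 0.151). Like *hspa5* it was highest among wt in sample 3, and without that sample it changed (log2 fold change 1.14, adjusted p in limma 0.0421). Leaving out a wt sample in which the gene is high raises the difference by construction. *ern1*, the gene of IRE1, named after its values were seen, also had groups that did not overlap, at 19.6, 16.2 and 16.7 TPM in *tulp1*-dKO and 13.1, 12.3 and 6.99 TPM in wt, but there wt sample 3 was the low one (log2 fold change 0.74, adjusted p in limma 0.183). Leaving out wt sample 3 lowered the log2 fold change of *ern1* to 0.46 (adjusted p in limma 0.169), again by construction. *rtcb*, the ligase that rejoins *xbp1* mRNA after IRE1 has cut it, had a log2 fold change of 0.31, and *bcap31*, an ER membrane protein linked to sorting and apoptosis, had 0.23 (adjusted p in limma 0.155 and 0.158).

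Chaperones had 32 tested genes, 30 of them with a log2 fold change above 0 and a median of 0.30. Of these, 1 rose past the adjusted p and 0 fell (0.67% and 1.22% of all genes). At an unadjusted p of 0.05 or less, 13 were higher and 1 lower (10.1% and 6.97% of all genes). The gene that passed was *calr3b*, a calreticulin that binds calcium and sugar-bearing chains, at 92.9, 101 and 92.6 TPM in *tulp1*-dKO and 64.4, 61.7 and 73.5 TPM in wt (log2 fold change 0.53, adjusted p in limma 0.0431). It passed in 9 of 17 alternative fits, and how reads divide among the calreticulin copies is uncertain. *fkbp9*, a proline isomerase of the ER, had a log2 fold change of 0.60 (adjusted p in limma 0.0981), and *sdf2l1*, a partner of BiP, had 0.37 (0.104). Without wt sample 3 there were 3 chaperones higher past the adjusted p (0.438% of all genes in that fit) and the median was 0.37. That sample was singled out by its high chaperones, so leaving it out raises these values by construction.

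Of the 32 chaperones, 5 (15.6%) stood at least 1.5 times above both other wt samples in wt sample 3, beside 4.55% of all genes tested. The 5 include *hspa5* and *hsp90b1*, which had drawn attention to the sample, so this share is partly fixed by that choice and is no test. In each other sample 0 or 1 of the chaperones did so within its group. Over all 210 tested pathway genes the count in wt sample 3 was 9 (4.29%), near the share of all genes. The rest of the 5 chaperones were *creld2*, *serpinh1b* and *dnajb9b*, all named after their values were seen. *creld2*, a gene known in mammals to follow ER stress closely, was at 19.1, 20.9 and 22.5 TPM in *tulp1*-dKO and 12.7, 10.3 and 21.7 TPM in wt. *serpinh1b*, a collagen chaperone, was at 129, 119 and 88.9 TPM in *tulp1*-dKO and 48.6, 30.2 and 243 TPM in wt, the largest excess of wt sample 3 in the pathway (6.18 times the mean of the other wt samples). *dnajb9b*, a co-chaperone of BiP, was at 12.3, 13.9 and 7.21 TPM in *tulp1*-dKO and 4.86, 5.81 and 11.5 TPM in wt. Summed cartilage and bone markers were at 2774 to 3770 TPM in *tulp1*-dKO and at 2974, 2886 and 3322 TPM in wt samples 1, 2 and 3, and their part in this result was not tested.

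Disulfide enzymes had 26 tested genes and a median log2 fold change of 0.14, with 1 higher and 1 lower past the adjusted p (0.67% and 1.22% of all genes). *ero1b*, an oxidase that keeps disulfide isomerases supplied, rose to 13.0, 15.98 and 15.8 TPM in *tulp1*-dKO, against 8.11, 8.76 and 8.98 TPM in wt (log2 fold change 0.78, adjusted p in limma 0.0303). *tmx3a*, a membrane-bound disulfide isomerase, was at 24.6, 24.8 and 22.1 TPM in *tulp1*-dKO and 41.1, 38.3 and 34.5 TPM in wt, and so fell by 0.67 on the log2 scale (adjusted p in limma 0.0297). Each passed in 10 of 17 alternative fits. *selenom*, a selenoprotein of the ER, had a log2 fold change of 0.40 (adjusted p in limma 0.0624), and *pdia3*, the isomerase that serves the calreticulin cycle, named after its values were seen, had 0.39 (0.0800).

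Exocrine pancreas, a secretory tissue that is rich in ER, was checked with 15 markers, of which *pdia2* is also in the list of disulfide enzymes. All 15 had a log2 fold change above 0 and 0 passed the adjusted p, with a median of 0.88. Their sum was 1006, 2770 and 5101 TPM in *tulp1*-dKO samples 1, 2 and 3 and 1167, 1792 and 1080 TPM in wt samples 1, 2 and 3. Over *tulp1*-dKO samples 1, 2 and 3, *hsp90b1* (296, 320 and 334 TPM) and *pdia4* (87.3, 101 and 108 TPM) rose in the same order. *hspa5* (387, 414 and 373 TPM) did not, and over the wt samples the order of these genes was the reverse of that of the pancreas sum. Pancreas and liver lie outside the head, and how their RNA came into the samples was not tested. The part of the pancreas markers in the results for the chaperones was not tested. Skeletal muscle markers summed to 11048 to 12106 TPM in *tulp1*-dKO and 9597 to 10367 TPM in wt, without overlap. All 12 had a log2 fold change above 0 (58.1% of all genes), and 0 of 12 passed the adjusted p. At an unadjusted p of 0.05 or less, 5 of the 12 were higher (10.1% of all genes). Liver markers summed to 3461 to 8481 TPM in *tulp1*-dKO and 5109 to 7294 TPM in wt. Markers of mucous and ionocyte skin cells summed to 3401 to 3519 TPM in *tulp1*-dKO and 2967 to 3082 TPM in wt without overlap. Of these 8, 4 were higher at an unadjusted p of 0.05 or less (10.1% of all genes) and 0 passed the adjusted p. Of 9 microglia and macrophage markers, 6 had a log2 fold change above 0 and 3 below. At an unadjusted p of 0.05 or less, 3 of the 9 were higher (10.1% of all genes) and 0 lower. Their sums overlapped, at 176 to 383 TPM in *tulp1*-dKO and 192 to 347 TPM in wt. The part of the muscle, skin and microglia markers in the results was not tested either.

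The pathway of ER-associated degradation, which pulls misfolded chains out of the ER and hands them to the proteasome, had 31 tested genes. None of the 31 passed the adjusted p in limma, and the median log2 fold change was 0.10. At an unadjusted p of 0.05 or less, 6 were higher and 1 lower (10.1% and 6.97% of all genes). *ube2g2*, a ubiquitin-conjugating enzyme of the pathway, was at 36.7, 40.2 and 35.5 TPM in *tulp1*-dKO and 25.2, 21.7 and 29.1 TPM in wt (log2 fold change 0.57, adjusted p in limma 0.0825). *man1b1b*, which trims mannose from misfolded glycoproteins, had a log2 fold change of 0.51, and *sel1l*, the scaffold of the central ligase, had 0.32 (adjusted p in limma 0.155 and 0.197). *herpud1*, a widely used reporter of ER stress, named after its values were seen, was at 31.7, 32.6 and 34.5 TPM in *tulp1*-dKO and 24.6, 26.7 and 31.7 TPM in wt (log2 fold change 0.26, adjusted p in limma 0.318).

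Targets of ATF4 and CHOP held the 2 changes of the pathway. Of 47 tested genes, 4 rose past the adjusted p and 0 fell (0.67% and 1.22% of all genes), and the median log2 fold change was 0.13. At an unadjusted p of 0.05 or less, 12 were higher and 1 lower (10.1% and 6.97% of all genes). *atf3*, a stress-induced transcription factor that other signals besides ER stress also switch on, was at 35.4, 34.5 and 43.4 TPM in *tulp1*-dKO and 4.59, 7.99 and 4.47 TPM in wt. Its log2 fold change was 2.75 (SE 0.23, adjusted p in limma 0.00286), and the lowest *tulp1*-dKO sample was 4.31 times the highest wt sample. *mthfd1l*, a mitochondrial enzyme of folate metabolism, was at 8.81, 9.76 and 8.15 TPM in *tulp1*-dKO and 3.0, 2.99 and 3.21 TPM in wt (log2 fold change 1.505, SE 0.13, adjusted p in limma 0.00319). Both changed in all 17 alternative fits.

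The other risers of this list were smaller in size. *asns*, asparagine synthetase, was at 17.6, 19.8 and 17.2 TPM in *tulp1*-dKO and 10.6, 11.2 and 9.77 TPM in wt (log2 fold change 0.79, adjusted p in limma 0.0201). *atf5a*, a copy of the ATF4 target *ATF5*, named after its values were seen, was at 67.0, 57.9 and 74.2 TPM in *tulp1*-dKO and 43.3, 41.2 and 44.6 TPM in wt (log2 fold change 0.62, adjusted p in limma 0.0412). *asns* passed in 10 and *atf5a* in 9 of 17 alternative fits. Of the enzymes of serine and glycine synthesis, *shmt2* and *psph* had log2 fold changes of 0.40 and 0.41 with adjusted p-values in limma of 0.0567 and 0.0771, and both were named after their values were seen.

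Other classic targets did not pass the test, and these too were named after their values were seen. *chac1*, a glutathione-degrading enzyme and one of the most responsive ATF4 targets in mammals, was at 192, 190 and 200 TPM in *tulp1*-dKO and 175, 197 and 201 TPM in wt (log2 fold change 0.03, 95% interval -0.16 to 0.21). *ppp1r15a*, which ends the translation block, had a log2 fold change of 0.06 (95% interval -0.19 to 0.31), and both values were so near 0 that their sign turned in 2 and 1 of 17 alternative fits. *trib3*, a pseudokinase induced by CHOP in mammals, was at 25.97, 26.9 and 30.1 TPM in *tulp1*-dKO and 17.6, 28.5 and 22.2 TPM in wt (log2 fold change 0.30, 95% interval -0.11 to 0.72, adjusted p in limma 0.440).

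Entry to and exit from the ER held none of the genes past the adjusted p. The translocon and signal peptidase list had 22 tested genes, 0 past the adjusted p, and a median log2 fold change of 0.04. At an unadjusted p of 0.05 or less, 3 were higher and 1 lower (10.1% and 6.97% of all genes). *tram1*, which helps chains into the ER, had a log2 fold change of 0.40, *ssr2*, a subunit of a translocon-associated complex, had 0.24, and *srp14*, a subunit of the signal recognition particle, had 0.23 (adjusted p in limma 0.144 to 0.249). Of the 28 genes of ER to Golgi transport, 27 had a log2 fold change above 0, 0 passed the adjusted p, 2 were higher and 0 lower at an unadjusted p of 0.05 or less, and the median was 0.12. Over all genes tested, 58.1% had a log2 fold change above 0 and 10.1% were higher at that p. *sec31b*, an outer coat protein of the vesicles that leave the ER, was at 11.8, 7.78 and 11.0 TPM in *tulp1*-dKO and 5.68, 6.15 and 6.6 TPM in wt (log2 fold change 0.70, adjusted p in limma 0.113). The cargo receptor *tmed10* and the receptor cofactor *mcfd2* had log2 fold changes of 0.23 and 0.20 (adjusted p in limma 0.158 and 0.359).

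**Figure D4:**
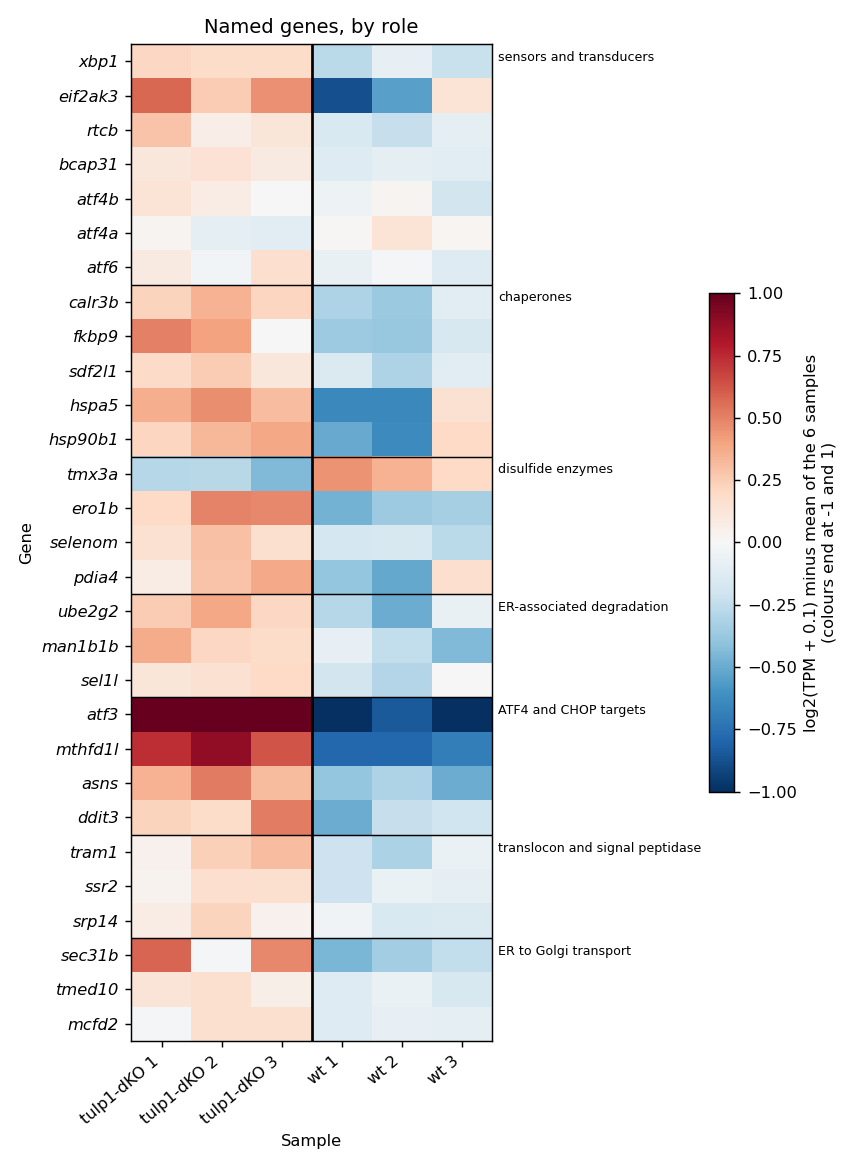
Log2(TPM + 0.1) of the 8 members and the genes named by rule in each list, minus the mean over the 6 samples of each gene, in *tulp1*-dKO samples 1 to 3 (left) and wt samples 1 to 3 (right). Colours end at -1 and 1, red marks samples above the mean of the gene and blue below. *hspa5*, *hsp90b1*, *pdia4* and *eif2ak3* are blue in wt samples 1 and 2 and pale red in wt sample 3, and *tmx3a* and, more faintly, *atf4a* are the genes with the lower mean in *tulp1*-dKO.

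The members fell into profiles of unlike shape across the 6 samples. Likeness was measured as the root mean square difference between 2 profiles of log2(TPM + 0.1) after the mean of each was taken away, and is a description without a test. *hsp90b1* was closest to *creld2* (0.0807) and *pdia4* (0.0938) among the pathway genes, *hspa5* to *hsp90b1* (0.106), and *pdia4* to *manf* (0.0855), a secreted ER stress protein. *xbp1* lay nearest to *psph* (0.0469) and *shmt2* (0.0589), and *ddit3* to *atf5a* (0.114), none of which share the high wt sample 3 of the chaperones. Over all genes averaging 5 TPM or more, genes outside the lists were closer still. They were *rnpep* for *hsp90b1* (0.0582), *si:ch211-262i1.5* for *pdia4* (0.0608) and *cep350* for *xbp1* (0.0199). For *hsp90b1*, *creld2* and *pdia4* came next among all these genes too. The nearest gene was sought there among many more genes than the lists hold. These values therefore cannot decide whether likeness is particular to the pathway.

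Within the 8 genes the closest pairs were *atf4b* with *atf6* (0.0867), *hsp90b1* with *pdia4* and *hspa5* with *hsp90b1*, and the farthest was *hspa5* with *atf4a* (0.525). Genes whose profile is nearly flat are close to many others by this measure: *atf4b* was within 0.0105 of *ykt6*, and *atf6* within 0.0289 of *ptpra*. *atf4a* was nearest among the pathway genes to *txndc15* (0.0471).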

How the data were processed

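RNA of dissected heads was sequenced by the authors on the Illumina NovaSeq platform, mapped to GRCz11 with HISAT2 and counted with RSEM, and the values they deposited are in TPM, 1 per gene and sample. TPM gives neither depth nor counting error, so the spread between samples is the error used. Each SD printed is that of the 3 samples of a group. The error in limma is pooled over both groups and drawn towards a trend across all genes. The authors' DESeq2 test, which needs counts, was not run. Groups came from the genotype labels. Genes averaging 0.5 TPM or more (22824) entered a limma fit of log2(TPM + 0.1) with *tulp1*-dKO over wt as the contrast (limma 3.58.1 under R 4.3.3, lmFit followed by eBayes with a trend). P-values were adjusted by the Benjamini-Hochberg method over all genes in the fit. The added 0.1 shrinks the fold changes of weakly expressed genes. A change had to reach an adjusted p of 0.05 and a 2-fold difference, as in the authors' own cut-offs. Intervals are 95% intervals of the fit. On simulated data the fit called 42 of 67 genes with a log2 difference of 1.5, 48 of 67 with 2.0 and 56 of 66 with 3.0. It made 3 false calls. Differences as small as those of the members were not simulated, so how often the fit misses them is unknown. Ratios were compared by a two-sided exact permutation test (scipy 1.17.1), and matplotlib 3.10.9 drew the plots from tables written with pandas 2.3.3 and numpy 2.4.6 in Python 3.11.15.

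The 8 members, the 7 pathway lists and the 13 marker lists were written by hand and chosen with earlier results of these data known. Of the names in the pathway lists, 211 were found and 210 tested. The lists are described by counts and medians, with no p for a list. Named genes are the 8 members, every gene of a list that changed, and the 3 genes with the smallest p in each list. For these 3, members were left out and genes that changed were counted. The genes nearest in profile to a member (among genes averaging 5 TPM or more) were named as well. Other genes are said to be named after their values were seen. Alternatives were other pseudocounts, filters, scalings and eBayes settings, the replicate number as a block, values summed by gene name, each sample left out in turn, and other thresholds. The markers cover rods, cones, Muller glia, retinal pigment epithelium, brain neurons, lens, exocrine pancreas, liver, cartilage and bone, pituitary, skeletal muscle, microglia and macrophages, and mucous and ionocyte skin cells. No coordinates or sequences are given, since the gene table used here is of another assembly than the files.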

Additional observations from a re-analysis of the deposited data

How the results depend on the processing

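Each member kept its direction in all 17 alternative fits, and over them the lowest adjusted p in limma was 0.0506 for *xbp1* and 0.0577 for *ddit3*. The number of members that changed was 0 to 1 when a sample was left out, the 1 being *hspa5* without wt sample 3. Leaving a sample out gave 2 to 4 changed pathway genes, the 4 being *hspa5*, *eif2ak3*, *atf3* and *mthfd1l* without wt sample 3, and 99 to 226 changed genes in all, against 302 with all 6 samples. The adjusted p alone gave 7 pathway genes, and the unadjusted p with a fold change of at least 2 gave 950 genes. With the replicate number as a block, 134 genes, 0 members and 2 pathway genes changed. Whether the numbers pair the samples is not settled. Deviations from the group means correlated across genes at 0.0290 to 0.0324 for samples of the same number and at -0.0206 to -0.0105 for samples of different numbers. The 3 deviations of a group sum to 0 for each gene. A positive value for the same number therefore pushes those of different numbers below 0 by construction. Each sample correlated best with its own number, and values this small cannot exclude pairing. The block moved *asns*, *atf5a*, *calr3b*, *tmx3a*, *ero1b* and *tulp1a* above an adjusted p of 0.05.

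Of 493 values of the 29 genes named by rule, 460 stayed on their side of the adjusted p, 29 lost it, 4 gained it (*hspa5*, *hsp90b1* and *eif2ak3* without wt sample 3, *fkbp9* at 0.0476 without *tulp1*-dKO sample 3) and 0 turned direction. Among genes named after their values were seen, the log2 fold change turned direction for *creb3l2* without wt sample 1, wt sample 2 or *tulp1*-dKO sample 2 (-0.18 to 0.52 over the fits that leave a sample out), for *chac1* without wt sample 1 (-0.037 to 0.063) and with median ratio scaling (-0.021), and for *ppp1r15a* without *tulp1*-dKO sample 3 (-0.041 to 0.12). The cause was not tested. TPM gives no depth, so the counting error of a value could not be weighed.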

Other observations

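Of the cytosolic heat shock genes, which answer to unfolded proteins outside the ER, 3 were named after their values were seen and stand for no list. *hsp90aa1.2* was at 162, 155 and 105 TPM in *tulp1*-dKO and 72.1, 64.2 and 164 TPM in wt, so wt sample 3 stood at 2.404 times the mean of the other wt samples and above every *tulp1*-dKO sample. *hsp70.3* was at 25.1, 20.8 and 9.41 TPM in *tulp1*-dKO and 4.92, 8.01 and 15.0 TPM in wt, and *dnajb1b* at 15.96, 17.9 and 12.1 TPM in *tulp1*-dKO and 10.4, 9.10 and 15.9 TPM in wt. The groups overlapped in all of them, and the adjusted p in limma was 0.349 to 0.456. Over all genes averaging 5 TPM or more, the profile closest to that of *hspa5* was *rnpep*, an aminopeptidase (0.0641), at 9.41, 10.8 and 10.4 TPM in *tulp1*-dKO and 5.25, 4.98 and 8.92 TPM in wt, followed by the heat shock gene *dnajb1a* (0.0764), at 18.9, 18.7 and 17.7 TPM in *tulp1*-dKO and 8.83, 10.2 and 15.95 TPM in wt. Unlike the 3 heat shock genes above, *dnajb1a* had groups that did not overlap (log2 fold change 0.70), as did 14.6% of all genes with *tulp1*-dKO above wt. It was named for its closeness to *hspa5*, whose groups do not overlap either, so this is largely fixed by that choice.

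*creb3l2*, an ER membrane transcription factor of the same design as ATF6 that in mammals serves secretion in cartilage, was at 11.6, 15.6 and 13.4 TPM in *tulp1*-dKO and 9.36, 9.33 and 24.8 TPM in wt. Like *serpinh1b*, it was highest of all 6 samples in wt sample 3.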
